A study of Mus musculus with 12 samples.

Results

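The GFP vector C166 cells are the unperturbed arm of a study of lentiviral vectors in a mouse cell line, and their expression profile across genes is described here. The profile rests on 4 of the 12 arrays of the study, chosen as the arrays of the group labelled GFP, and covers the 17306 probe sets that are not hybridisation controls. C166 is labelled an endothelial cell line. It is known as a line grown out of the yolk sac of mice that carried a human Fes transgene. The cells were grown in DMEM with 10% foetal bovine serum. At 20% confluency they received a lentivirus that encodes GFP, at 10 infectious particles per cell (the multiplicity of infection). The medium was replaced after 72 h and RNA was taken on day 7, when more than 99% of the cells expressed GFP per the labels. The other 8 arrays carry the same GFP marker together with an shRNA against the Vegfa promoter and enter no value below. An untransduced culture was not analysed here, so the profile is that of vector-bearing cells. No label tells whether the 4 replicates were grown as separate cultures, so their spread may be technical.

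Endothelial cells line blood vessels. Their junctions are built with the adhesion proteins Pecam1 and Cdh5 (VE-cadherin), they respond to VEGF and angiopoietins through the receptors Kdr, Flt1, Tie1 and Tek, and ETS factors such as Erg and Fli1 with Sox17 and Sox18 maintain their gene programme. Mesothelial cells cover the serous surfaces of the body cavities and arise from mesoderm. They are recognised by the transcription factor Wt1, the surface glycoprotein Msln and the uroplakins Upk3b and Upk1b. Fibroblasts and smooth muscle share with them an origin in mesoderm and are recognised by fibrillar collagens and by contractile proteins.

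Each level is the log2 of an array intensity, and is given either on replicates 1, 2, 3 and 4 in that order or as a mean ± SD over the 4 arrays (n = 4). Every probe set stands for 1 gene and binds its target with its own strength, so the order of genes is an order of array signal and not of transcript number. Chemosensory receptors, which odour and taste cells express, served as a class of genes that should be silent. The background level of an array was the 95th percentile of its 68 chemosensory receptor probe sets, at 3.05, 3.07, 3.08 and 3.13. A gene was called above background where it exceeded this level on every array. That held for 10732 probe sets, 62.0% of those tested, while 6175 (35.7%) were at or below it on every array and 399 changed side between arrays. The median of all probe sets was 5.18.

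Calls near the threshold carry little weight, and a call below it does not show absence. Of the 10732 probe sets above background, 1380 had all 4 arrays within 0.03 of each other. The share was 37.2% of the 1882 with a mean under 5 but 2.5% of the 4221 with a mean of 8 or more, and below background 80.0% of probe sets were as tight. Such near-identical values are named below as within 0.03, and whether they hold signal from RNA was not tested. In the other direction, the bacterial BioB control, which is commonly the scarcest of the RNAs added to such arrays, had means of 2.46, 3.13 and 3.41 on its original probe sets and of 5.52, 3.47 and 4.74 on its redesigned ones, so probe sets of 1 added RNA fell on both sides of the background level. Some genes that dividing cells use were named here outside the naming rule, after their values were seen. Of these, the transferrin receptor Tfrc had a mean of 2.94 and the mitotic transcription factor Foxm1 of 2.60, both below background. The cell cycle kinase Cdk1 (9.83 ± 0.080), topoisomerase Top2a (9.94 ± 0.053) and the replication helicase subunit Mcm2 (8.94 ± 0.053) were far above it.

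**Figure D1:**
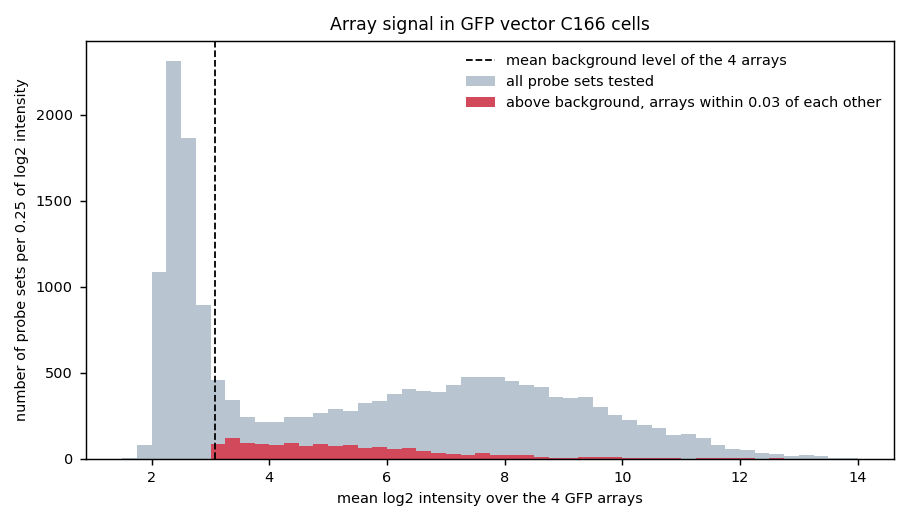
Distribution of the mean log2 intensity over the 4 GFP arrays (horizontal axis) as the number of probe sets per 0.25 (vertical axis), for all 17306 probe sets in grey and for the 1380 that were above background with all arrays within 0.03 in red. The dashed line is the mean background level of the arrays; a narrow peak lies to its left, a broad one to its right, and the red bars are most frequent just above the line.

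The label was at odds with the markers. Of 44 endothelial markers on the array, 16 were above background (36.4%), 26 were below it and 2, Ramp2 and Stab2, changed side between arrays. This share is under the 62.0% of all probe sets, and no endothelial marker lay in the top 10% of levels. The platelet and endothelial adhesion protein Pecam1 was at 2.43, 2.45, 2.43 and 2.43. The junction cadherin Cdh5 was at 2.61, 2.63, 2.60 and 2.61. The angiopoietin receptor Tek was at 2.77, 2.82, 2.81 and 2.78. All 3 stayed below background on every array, with no array apart from the others.

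Most other genes that define endothelium were as low. The orphan receptor Tie1 had a mean of 2.16, the ETS factor Erg 2.14, the clotting carrier protein Vwf 2.15, the sialomucin Emcn 2.37 and the TGF-beta co-receptor Eng 2.38. The tight junction claudin Cldn5 had 2.36, the SoxF factors Sox17 and Sox18 had 2.48 and 2.40, and the adhesion protein Icam2 had 1.98. The ETS factor Etv2, which starts the endothelial programme in embryos, had 2.73, and was named after its value was seen. The member nearest below the background level was the guidance receptor Robo4 at 2.83, and the nearest above it was the junction protein Esam at 3.14.

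Some endothelial markers did carry signal. The homeobox factor Hhex was at 8.50, 8.48, 8.55 and 8.63. The sialomucin Cd34 was at 8.48, 8.38, 8.47 and 8.44. The small membrane protein Ecscr was at 8.41, 8.27, 8.47 and 8.42. The replicates of all 3 lay close together and well above the median of all probe sets. Lower levels were read for the secreted protein Egfl7 (6.21 ± 0.064), the ETS factor Fli1 (5.79 ± 0.15), the matrix protein Mmrn1 (6.50 ± 0.19), the peptide ligand Apln (5.14 ± 0.030) and the nitric oxide synthase Nos3 (4.99 ± 0.075).

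The VEGF receptors were not clearly detected. Kdr, the main signalling receptor for Vegfa, was at 4.96, 4.96, 4.96 and 4.96, which is above background by the rule but spans only 0.0042. Flt1 (3.28, range 0.0059) and Flt4 (3.45, range 0.0066), the receptors for Vegfa and Vegfc, were likewise within 0.03. In all, 7 of the 16 endothelial markers above background were within 0.03, among them Tal1, Mcam, Mmrn2 and Esam. This leaves 9 of 44 (20.5%), against 54.0% of all probe sets counted the same way. Among the coreceptors of VEGF and semaphorins, Nrp1 was at 9.87, 9.68, 9.78 and 9.67 and Nrp2 at 8.94, 8.81, 8.80 and 8.81, with replicate 1 highest for both.

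Mesothelial markers were bright. Of 28 on the array, 23 were above background (82.1%, against 62.0% of all probe sets), their median was 8.11 and 13 lay in the top 10% of all levels. Like the other lists, this one was chosen with earlier results of these data known. Its share is therefore a description and not a test. None of the 23 was within 0.03 across arrays. The uroplakin Upk3b was at 11.66, 11.57, 11.65 and 11.76. The zinc finger factor Wt1, which the mesothelium needs to develop normally, was at 10.10, 10.14, 10.05 and 9.93. The leucine-rich repeat protein Lrrn4 was at 10.99, 10.75, 10.96 and 11.01. For Upk3b and Lrrn4 replicate 2 was slightly lower than the others, and for Wt1 replicate 4 was.

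Other mesothelial markers covered a wide range of levels. The membrane glycoprotein Gpm6a had 12.10 ± 0.041, the basonuclin Bnc1 11.56 ± 0.028, the uroplakin Upk1b 10.96 ± 0.10, the podoplanin gene Pdpn 10.13 ± 0.13 and the Wnt agonist Rspo1 9.96 ± 0.070. Mesothelin (Msln) had 7.86 ± 0.096, the mucin Muc16 8.21 ± 0.062, the sialomucin Podxl 7.86 ± 0.10, the retinoic acid synthesis enzyme Aldh1a2 7.69 ± 0.035 and the T-box factor Tbx18 6.84 ± 0.17. Cpe, Dcn, Efemp1, Igfbp6 and the transcription factor Tcf21, between 10.31 and 13.53, are on the list too but are also widely made by fibroblasts, and Dcn stands on the fibroblast list as well.

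The keratins and other epithelial features of mesothelium were read at mixed levels. Keratin Krt7 was at 8.01, 7.81, 7.94 and 8.26, highest in replicate 4 and above the median of all probe sets on every array, while Krt18 (4.62 ± 0.044) and Krt19 (4.52 ± 0.13) lay under the median of all probe sets. Krt8, the usual partner of Krt18, had a mean of 2.20 and was below background. So were the adhesion protein Cdh1 (2.82), the calcium-binding protein Calb2 (2.10), Gata5 (2.44) and Sbspon (2.51). Krt19 was the mesothelial member nearest above the background level and Cdh1 the nearest below.

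**Figure D2:**
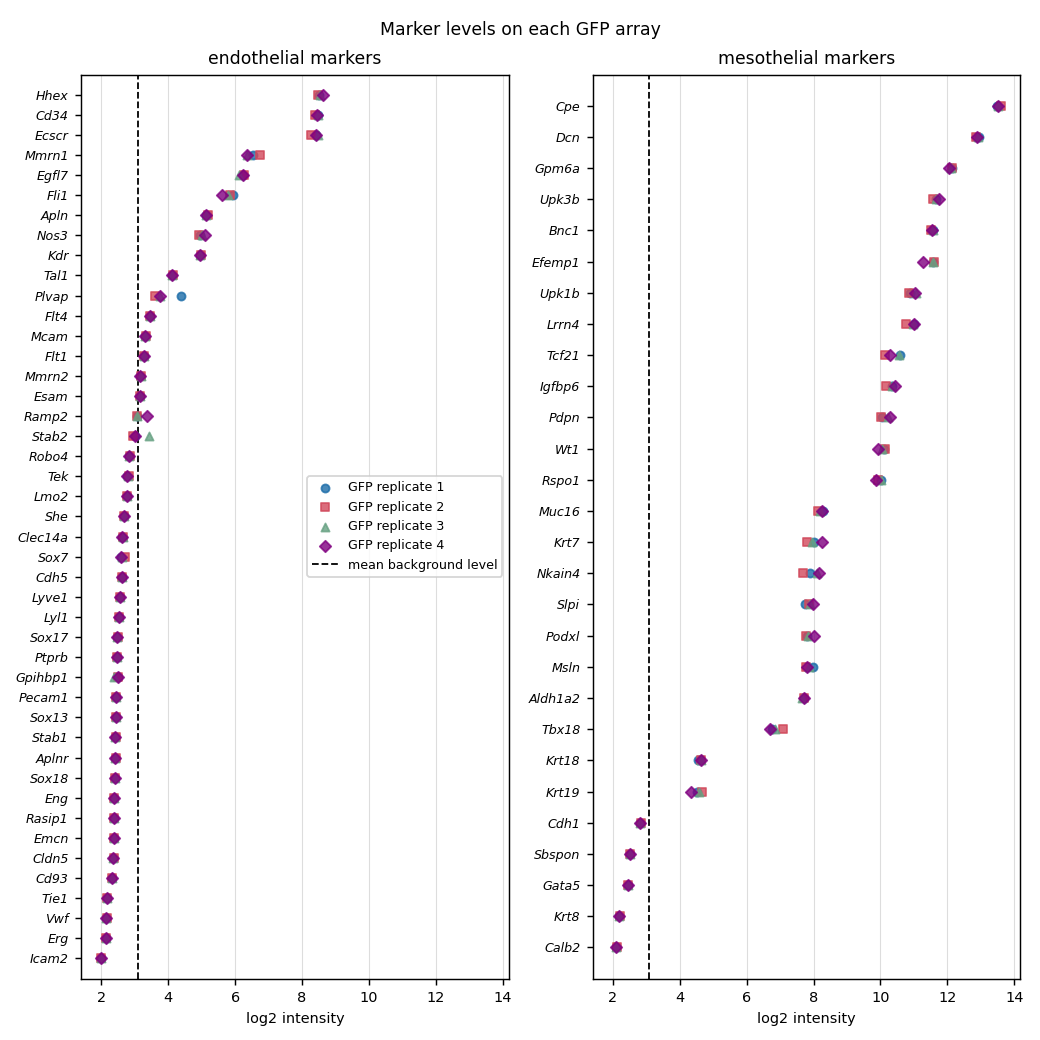
Log2 intensity (horizontal axis) of the 44 endothelial and 28 mesothelial markers on the array (vertical axes), with a symbol for each GFP replicate and the mean background level as a dashed line. Of the endothelial markers 26 lie below background on every array and none is above 9, while 13 mesothelial markers lie between 9.96 and 13.53.

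Among the 11 lineage lists, fibroblast and pericyte genes had the largest share above background, 25 of 29 (86.2%, against 62.0% of all probe sets). Their median was 8.71. Of the 25, 3 were within 0.03, which leaves 22 of 29. By that count the mesothelial list, at 23 of 28, had the larger share. The collagen chain Col1a2 was at 13.61, 13.56, 13.59 and 13.68. The intermediate filament protein Vim was at 13.30, 13.35, 13.27 and 13.26. The collagen chain Col3a1 was at 12.61, 12.46, 12.56 and 12.51. These levels were close to the upper end of the array's range on every replicate. The receptors for platelet-derived growth factor were present in both forms, Pdgfrb at 9.71 ± 0.072 and Pdgfra at 8.79 ± 0.12, and so were the mesenchymal transcription factors Prrx2 (9.22 ± 0.067), Prrx1 (9.00 ± 0.042), Twist2 (8.83 ± 0.11) and Twist1 (8.67 ± 0.081). The 4 members below background were those used to mark pericytes, namely the proteoglycan Cspg4 (2.93), the signalling regulator Rgs5 (2.61) and the potassium channel subunits Abcc9 (2.46) and Kcnj8 (2.40). Another pericyte marker, Notch3, had 3.78 and was within 0.03. Some fibroblast markers were dim as well. Dpt (4.26) and Pi16 (3.40) were within 0.03, Mfap5 had 3.38 ± 0.029 and Fap 4.81 ± 0.19. Thy1 had 6.52 ± 0.023.

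Contractile genes of smooth muscle were mostly above background. Of 18 listed genes, 14 were above background (77.8%, against 62.0% of all probe sets) and 6 lay in the top 10%. Smooth muscle actin Acta2 was at 13.15, 13.25, 13.16 and 13.23. The actin-binding proteins Cald1 and Tagln were at 13.08, 13.06, 13.05 and 13.00 and at 12.15, 12.21, 12.17 and 12.26. Tropomyosin Tpm1 was at 12.21, 12.19, 12.20 and 12.29. The smooth muscle myosin heavy chain Myh11 (2.78), the coactivator Myocd (2.23) and the channel subunit Kcnmb1 (2.54) were below background. Among other markers of mature smooth muscle, smoothelin Smtn was at 8.52, 8.32, 8.47 and 8.36, calponin Cnn1 had 5.68 ± 0.051 and leiomodin Lmod1 5.58 ± 0.10, all above it.

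Heart and skeletal muscle genes were mostly below background, 24 of 36, with 9 above it (25.0%, against 62.0% of all probe sets). The exception among the bright genes was the cardiac troponin T gene Tnnt2, at 11.07, 10.83, 11.02 and 11.07, lowest in replicate 2. The slow muscle troponins Tnnc1 and Tnni1 had 7.38 ± 0.046 and 7.28 ± 0.26. The cardiac troponin I gene Tnni3 (2.15), the myosin heavy chains Myh6 (2.57) and Myh7 (2.38) and titin Ttn (2.64) were below background, as were the myogenic factors Myod1 (2.47) and Myog (2.72).

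Promoter sequences of the contractile genes are shown because muscle promoters are known to hold a short element, the MCAT box, that TEAD transcription factors bind. Its core was searched as GGAATG, which reads CATTCC on the opposite strand, in the 250 bases before each gene's start in RefSeq's promoter table (build GRCm38.p6). Of the 16464 named probe sets, 13162 had a promoter in it. For a gene with several starts a match at any of them was counted. The core occurred in 13.5% of all these promoters, in 6 of the 14 smooth muscle genes with a promoter (42.9%: Acta2, Cald1, Tpm1, Mylk, Smtn and Lmod1), in 8 of 29 heart and skeletal muscle genes (27.6%), in 3 of 17 mesothelial markers (17.6%) and in 3 of 24 endothelial markers (12.5%). The motif was chosen after levels were seen, and a match describes letters and not a bound site. The windows below run 5′ to 3′ in the direction of the gene, with the core in capitals:
Acta2: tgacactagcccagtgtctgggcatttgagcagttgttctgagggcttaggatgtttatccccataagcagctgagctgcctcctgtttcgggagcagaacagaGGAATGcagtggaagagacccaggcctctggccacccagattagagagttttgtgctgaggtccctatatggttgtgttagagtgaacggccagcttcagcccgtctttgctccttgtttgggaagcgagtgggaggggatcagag
Cald1: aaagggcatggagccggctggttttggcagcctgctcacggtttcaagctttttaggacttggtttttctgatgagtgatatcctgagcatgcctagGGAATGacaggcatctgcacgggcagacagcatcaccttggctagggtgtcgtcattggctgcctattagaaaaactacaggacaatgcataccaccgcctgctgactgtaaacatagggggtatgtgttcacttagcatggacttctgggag
Tpm1: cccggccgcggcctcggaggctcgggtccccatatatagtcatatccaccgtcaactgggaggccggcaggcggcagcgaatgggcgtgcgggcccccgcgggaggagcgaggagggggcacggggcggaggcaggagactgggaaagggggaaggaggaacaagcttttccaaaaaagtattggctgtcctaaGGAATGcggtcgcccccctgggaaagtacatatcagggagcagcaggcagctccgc
Mylk: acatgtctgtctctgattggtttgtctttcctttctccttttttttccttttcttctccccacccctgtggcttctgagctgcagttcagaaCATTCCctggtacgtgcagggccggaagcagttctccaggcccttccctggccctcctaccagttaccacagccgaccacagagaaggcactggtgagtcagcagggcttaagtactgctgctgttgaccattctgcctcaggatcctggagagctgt
Tnnt2: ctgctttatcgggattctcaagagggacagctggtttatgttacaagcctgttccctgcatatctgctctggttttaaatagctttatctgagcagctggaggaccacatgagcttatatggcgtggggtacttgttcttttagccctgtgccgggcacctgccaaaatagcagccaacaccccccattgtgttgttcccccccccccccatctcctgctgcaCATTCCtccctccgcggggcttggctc
Upk3b: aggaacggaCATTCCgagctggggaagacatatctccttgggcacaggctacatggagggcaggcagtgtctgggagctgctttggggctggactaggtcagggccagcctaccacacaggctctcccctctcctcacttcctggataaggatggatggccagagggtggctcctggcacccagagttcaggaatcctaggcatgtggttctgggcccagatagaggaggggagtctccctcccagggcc

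The Acta2 window lies at chr19:34255374-34255623 on the minus strand, that of Cald1 at chr6:34598254-34598503 on the plus strand, that of Tpm1 at chr9:67049214-67049463 on the minus strand, that of Mylk at chr16:34784700-34784949 on the plus strand, that of Tnnt2 at chr1:135836084-135836333 on the plus strand and that of Upk3b at chr5:136038246-136038495 on the plus strand. Cald1 and Tnnt2 have another listed start, whose windows hold no match and are not shown. The core begins 27 bases before the Tnnt2 start, 56 before the Tpm1 start, 146 before the Acta2 start, 153 before the Cald1 start, 158 before the Mylk start and 241 before the Upk3b start. Myosin light chain kinase, Mylk, had a level of 9.67, 9.45, 9.58 and 9.52, highest in replicate 1. Of the factors that act at the core, Tead1 had 8.28 ± 0.058, and the TEAD coactivators Wwtr1 and Yap1 had 8.79 ± 0.024 and 8.19 ± 0.018. Tead1 and Yap1 were named for this motif and lie outside the naming rule.

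Across all genes other promoter letters differed between those above and those below background. GGGCGG, the core bound by Sp factors, stood in 64.9% of the 8353 promoters of genes above background and in 37.1% of the 4511 of genes below it. CCGGAAGT, an ETS core, stood in 6.8% and 1.9%. TATAAA stood in 8.1% and 14.6%, yet in 7 of 22 promoters of the 30 brightest genes (31.8%). CCAAT stood in 40.5% and 37.4%, and the CArG box, which SRF binds and which can overlap TATAAA, in 1.4% and 1.6%. The box was searched as CCWWWWWWGG, with A or T at each W, so forms with another letter there were not counted. It stood in 1.5% of all promoters, in 1 of 14 smooth muscle genes (7.1%) and in 3 of 29 heart and skeletal muscle genes (10.3%). Among mesothelial markers it stood in 0 of 17, and among endothelial markers in 0 of 24. All these motifs were searched on both strands, and promoters of CpG-rich genes hold GC-rich letters more often.

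Among the brightest genes, matrix, cytoskeleton and ribosome genes stood together. The carbohydrate-binding lectin Lgals1 was first at 13.89, 13.93, 13.91 and 13.92. The ribosomal protein Rpl4 followed at 13.85, 13.86, 13.87 and 13.90, then Col1a2 and beta-actin (Actb) at 13.58, 13.56, 13.59 and 13.62. The 30 brightest named genes ran from 13.91 to 13.04, and the arrays overlapped in 28 of the 29 pairs of neighbours in this order, the exception being Rpl4 and Col1a2. Ribosome and translation genes made up 7 of the 30 (Rpl4, Rpl26, Rpl8, Rps9, Rps15, Eif5a and Eef1b2). Members of the secreted protein families made up 5 (Col1a2, Fn1, Bgn, Mgp and the protease Ctsl, which also works in the lysosome).

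The rest of the brightest group had varied roles. Acta2, Actb, Vim, Cald1 and the actin-sequestering peptide Tmsb4x belong to the cytoskeleton. The mitochondrial proteins Chchd2 (13.44 ± 0.032), Atp5g3 (13.35 ± 0.039) and Cox6a1 (13.28 ± 0.029) stood beside the iron store ferritin Fth1 (13.23 ± 0.048) and the glutathione transferase Mgst1 (13.20 ± 0.029). Carboxypeptidase E, Cpe, which trims peptide hormones in endocrine and neural cells, held position 6 at 13.49, 13.60, 13.52 and 13.50. The calcium-binding proteins S100a6 (13.23 ± 0.014) and Anxa1 (13.21 ± 0.036) also belonged to the group, as did Tmed2 (13.22 ± 0.068) of transport between endoplasmic reticulum and Golgi, the lysosomal membrane protein Laptm4a (13.16 ± 0.047), the histone gene H3f3b (13.15 ± 0.053) and the transcriptional regulator Tsc22d1 (13.04 ± 0.041).

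**Figure D3:**
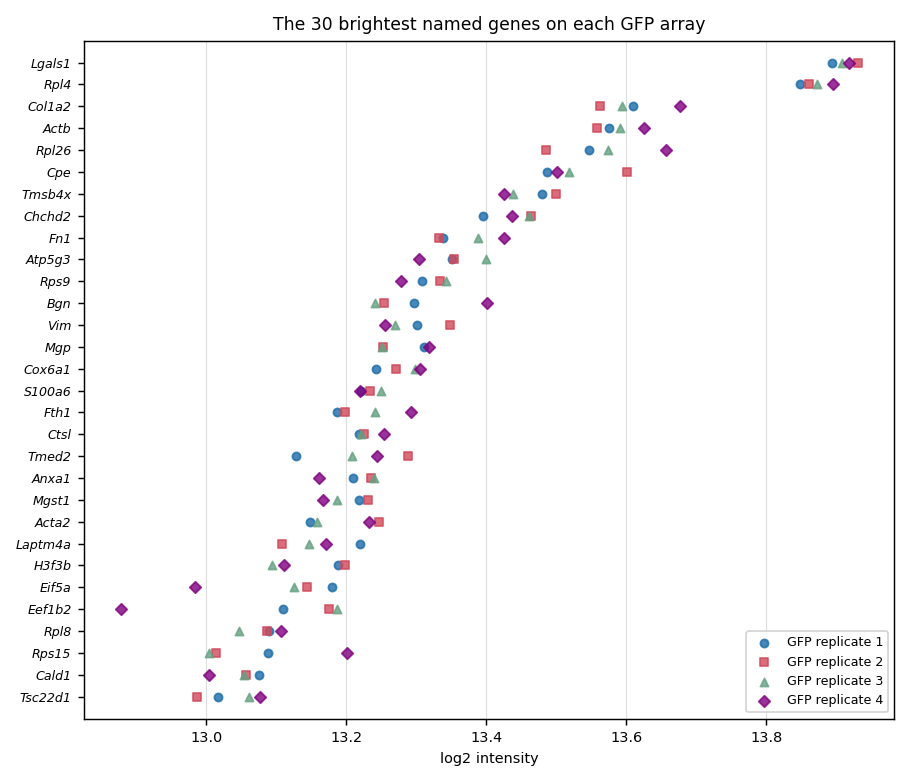
Log2 intensity (horizontal axis) of the 30 brightest named genes (vertical axis), with a symbol for each GFP replicate. All means lie between 13.04 and 13.91, and the replicates of most genes overlap those of their neighbours.

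Transcription factors were above background less often than probe sets as a whole, 312 of 599 in 15 families (52.1%, against 62.0%), and 36 lay in the top 10%. The 12 brightest are named here. Atf4, which drives amino acid and endoplasmic reticulum stress genes, was at 12.38, 12.39, 12.39 and 12.44. Egr1, an early response gene, was at 12.30, 12.56, 12.31 and 12.40, highest in replicate 2. Cebpb, a factor of inflammation and fat cell differentiation, was at 11.35, 11.48, 11.40 and 11.43. Xbp1 (11.22 ± 0.078) serves the unfolded protein response and Nfe2l2 (11.00 ± 0.070) the oxidative stress response. Between Egr1 and Cebpb in array signal lay Adnp (11.75 ± 0.058), Atf1 (11.70 ± 0.10), Yy1 (11.59 ± 0.14) and the basonuclin Bnc1 (11.56 ± 0.028) of the mesothelial list, and the widely expressed Sp3 had 11.03 ± 0.13. Snai2, a repressor of epithelial genes, had 11.15 ± 0.11, and Id1, an inhibitor of differentiation, had 10.98 ± 0.085.

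Hox genes, which pattern the embryo from head to tail, were above background less often than probe sets as a whole. Of 34 Hox genes, 11 were above background (32.4%) and none was in the top 10%. Hoxa5 was at 9.46, 9.41, 9.44 and 9.49. Hoxb3 was at 8.51, 8.47, 8.48 and 8.18. Hoxa2 and Hoxb2 had 7.34 ± 0.11 and 7.31 ± 0.088. The other 7 were Hoxb4 (6.64 ± 0.24), Hoxa3 (6.30 ± 0.18), Hoxc13 (5.42 ± 0.18), Hoxa10 (5.20 ± 0.055), Hoxd8 (4.98 ± 0.17), Hoxa4 (4.94 ± 0.19) and Hoxa9 (3.28 ± 0.085), named after their values were seen.

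In other families of developmental factors single members were bright. Gata6, a factor of heart, gut and lining tissues, was at 9.48, 9.35, 9.44 and 9.47. Gata2 had 7.55 ± 0.021 and Gata3 5.58 ± 0.088, while Gata4 (3.53) was within 0.03. The nuclear receptor Nr2f1 had 11.19, 10.99, 11.04 and 10.56, lowest in replicate 4, and the homeobox cofactor Meis2 had 10.64 ± 0.094. The basic helix-loop-helix factor Tcf21, which marks epicardial and visceral fibroblast precursors, was at 10.59, 10.14, 10.55 and 10.29, lowest in replicate 2. The forkhead genes Foxc2 (8.48 ± 0.097), Foxc1 (8.48 ± 0.059) and Foxd1 (7.82 ± 0.12) were present, as were Sox4 (8.11 ± 0.075) and Sox9 (7.69 ± 0.068). Of 19 Sox genes, 6 were above background (31.6%), and of 120 other homeobox genes 40 were (33.3%), against 62.0% of all probe sets.

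Families whose members respond to signals differed in their share above background. It was 8 of 9 for NF-kB and Nfat genes (88.9%), 18 of 22 for Smad, Tead and SRF-MEF2 genes (81.8%), 17 of 22 for Krueppel-like and Sp genes (77.3%) 27 of 35 for AP-1 and ATF genes (77.1%), 9 of 14 for STAT and IRF genes (64.3%) and 25 of 43 for nuclear receptors (58.1%). Over all probe sets the share was 62.0%. With a level of 5 on every array in place of the background level, NF-kB and Nfat genes fell to 5 of 9 and all probe sets to 50.6%. The NF-kB subunit Rela had 10.00 ± 0.069, the signal transducer Smad4 10.20 ± 0.062, Stat3 9.63 ± 0.066 and the ETS factor Ets2 10.21 ± 0.016. The AP-1 subunit Jun had a mean of 2.36, below background on every array.

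**Figure D4:**
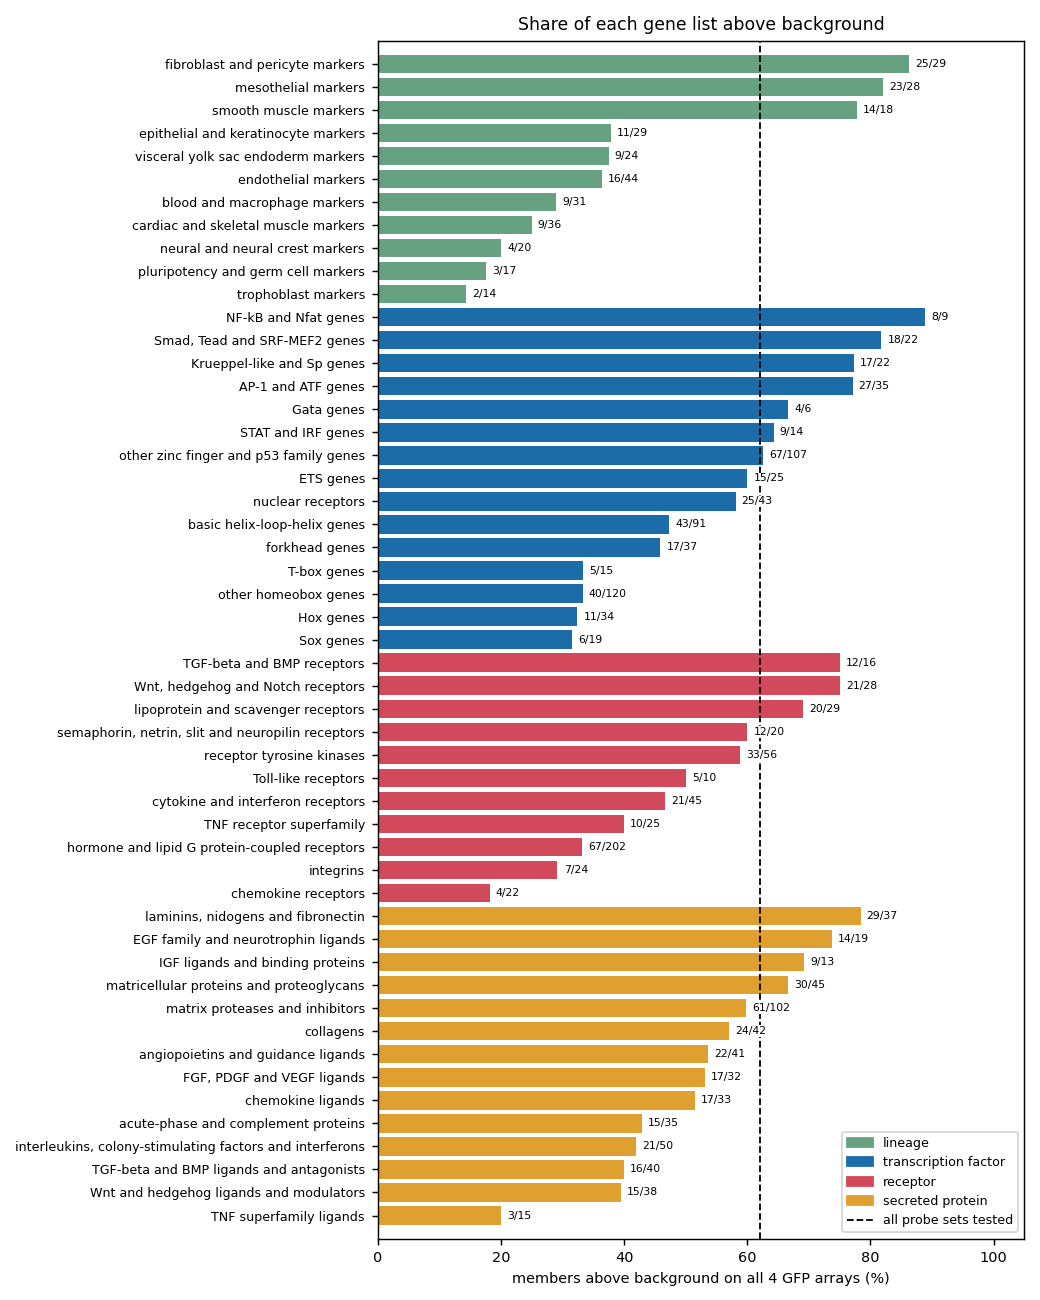
Share of members above background on all 4 GFP arrays (horizontal axis, per cent) for the 11 lineage lists and the families of transcription factors, receptors and secreted proteins (vertical axis), with the count beside each bar. The dashed line is the 62.0% of all probe sets; fibroblast, mesothelial and smooth muscle markers lie to its right and the other 8 lineage lists to its left.

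Receptors were above background in 209 of 474 cases in 11 families (44.1%, against 62.0%), and 17 lay in the top 10%. Gas1, a membrane protein that binds hedgehog ligands, was at 12.51, 12.52, 12.44 and 12.49. F2r, the thrombin receptor, was at 12.31, 12.29, 12.33 and 11.95, lowest in replicate 4. Ghr, the growth hormone receptor, was at 10.57, 10.46, 10.57 and 10.60. The gap below F2r was wide, since the next 10 receptors lay between 9.88 and 10.55. They include the netrin receptor Neo1 (10.35 ± 0.069), the scavenging Cxcl12 receptor Ackr3 (10.24 ± 0.11), the thymic stromal lymphopoietin receptor Crlf2 (10.24 ± 0.052) and the Gas6 receptor Axl (10.22 ± 0.091).

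By family, receptors for TGF-beta and BMP (12 of 16, 75.0%) and for Wnt, hedgehog and Notch ligands (21 of 28, 75.0%) were above background most often. Acvr1 had 9.43 ± 0.027, Tgfbr3 9.38 ± 0.017 and Bmpr1a 8.71 ± 0.055, while Eng was below background. Of 56 receptor tyrosine kinases, 33 were above background (58.9%, near the 62.0% of all probe sets), led by Axl, Pdgfrb and the collagen receptor Ddr2 (9.19 ± 0.075). The tumour necrosis factor receptor Tnfrsf1a was at 9.79, 9.82, 9.87 and 10.04 and the Toll-like receptor Tlr4 had 7.37 ± 0.10.

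Integrins, the receptors that bind matrix, were called above background in only 7 of 24 cases (29.2%, against 62.0% of all probe sets). Itgb5 was at 9.86, 9.76, 9.71 and 9.88 and Itgb1, the partner of most alpha chains, at 9.41, 9.42, 9.31 and 9.38. The alpha chain Itgav had 5.75 but spanned 0.0078, and Itga5, the main fibronectin receptor chain, changed side of the background level at 3.10. Both were named after their values were seen. The platelet integrin chain Itga2b was at 7.24, 6.95, 7.33 and 7.50 and the leukocyte chain Itgb2 had 6.67 ± 0.14. Chemokine receptors were above background in 4 of 22 cases (18.2%), and Ackr3 was alone among them above 5.

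Secreted proteins were above background in 291 of 540 cases in 14 families (53.9%, against 62.0%), but 79 lay in the top 10% of all levels (14.6% of the 540). Fibronectin, Fn1, was at 13.34, 13.33, 13.39 and 13.42. Biglycan, Bgn, was at 13.30, 13.25, 13.24 and 13.40. The calcification inhibitor Mgp was at 13.31, 13.25, 13.25 and 13.32. The replicates of each lay close together. The collagen chains Col5a2 (12.86 ± 0.055) and Col6a2 (11.01 ± 0.12), the matricellular protein Sparc (12.82 ± 0.076), decorin (Dcn, 12.90 ± 0.032), the collagen chaperone Serpinh1 (12.46 ± 0.043) and the procollagen processing enhancer Pcolce (12.14 ± 0.056) completed the matrix set. Col1a1, the partner chain of Col1a2, was read at 9.47, 9.18, 9.30 and 9.48. The levels of these partner probe sets do not tell which transcript is more abundant.

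Some growth factor antagonists and ligands were bright, although the lists of BMP and of VEGF ligands were above background less often than probe sets as a whole. The count was 16 of 40 for TGF-beta and BMP ligands and antagonists (40.0%) and 17 of 32 for FGF, PDGF and VEGF ligands (53.1%). The BMP antagonist Grem1 was at 12.68, 12.75, 12.69 and 12.75. Fstl1 had 12.23 ± 0.071 and the BMP modulator Bmper 11.51 ± 0.062. The ligand Bmp4 was at 11.04, 10.93, 10.99 and 11.12. Of 13 IGF ligands and binding proteins, 9 were above background (69.2%), near the 62.0% of all probe sets. The binding proteins Igfbp7 (12.50 ± 0.068), Igfbp4 (11.48 ± 0.068) and Igfbp3 (11.44 ± 0.067) were in the lead. Pdgfc (10.97 ± 0.054), the neurite-promoting factor Ptn (11.08 ± 0.13) and the Axl ligand Gas6 (10.34 ± 0.079) were present too.

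The VEGF ligands Vegfa, Vegfb, Vegfc and Vegfd were clearly read, while Pgf lay under the median of all probe sets. Vegfa, the gene the study's shRNAs address, was at 7.15, 7.37, 7.13 and 7.15, highest in replicate 2. Vegfc, a ligand of lymphatic growth, was at 10.15, 9.99, 10.10 and 10.12. Vegfb had 7.90 ± 0.052, Vegfd 6.37 ± 0.090 and Pgf 4.05 ± 0.082, while the angiopoietins Angpt1 (2.59) and Angpt2 (2.88) were below background. Vegfa, Vegfd, Pgf and the angiopoietins were named for the study's question and lie outside the naming rule.

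Some inflammatory and acute-phase proteins were bright in these cultured cells. The lists of chemokine ligands and of acute-phase and complement proteins were nevertheless above background less often than probe sets as a whole. The serum amyloid gene Saa3 was at 12.97, 13.05, 12.82 and 12.74. The chemokine Cxcl12, which holds blood precursors in marrow, was at 11.70, 11.70, 11.71 and 11.78. The monocyte attractant Ccl2 was at 11.51, 11.48, 11.47 and 11.65. Their replicates lay close together, with Saa3 somewhat higher in replicates 1 and 2. The neutrophil attractant Cxcl1 was at 10.48, 11.30, 10.82 and 10.81, highest in replicate 2 and lowest in replicate 1. Cxcl15, known from mouse lung, had 11.05 ± 0.070, the alarmin Il33 10.86 ± 0.076 and Il18 10.80 ± 0.076. Of 33 chemokine ligands 17 were above background (51.5%), and of 35 acute-phase and complement proteins 15 were (42.9%), against 62.0% of all probe sets. Among the 15 were transferrin (Trf, 11.55 ± 0.091), haptoglobin (Hp, 11.19 ± 0.11) and clusterin (Clu, 11.00 ± 0.055).

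Markers of visceral yolk sac endoderm and of blood cells and macrophages were mostly below background. Of 24 markers of visceral yolk sac endoderm, 9 were above background (37.5%, against 62.0% of all probe sets), including Trf, Gata6 and the endocytic adaptor Dab2 (9.64 ± 0.079). Without the 2 within 0.03 the count was 7. The uptake receptor Lrp2 (7.39 ± 0.11), the forkhead factor Foxa2 (7.38 ± 0.12) and the retinol carrier Rbp4 (7.09 ± 0.17) were also above background. Gata4, Apob (3.21) and Spink1 (3.20) lay just above it. The secreted proteins that best define that layer were below background, with Afp at 2.36, Ttr at 2.43 and Apoa1 at 2.17, and so were the uptake receptor Cubn (2.21) and its partner Amn (2.64). Of 31 blood and macrophage markers, 9 were above background (29.0%). Without the 3 within 0.03 (Fcer1g, Klf1 and Runx1) the count was 6. Over all probe sets 54.0% were left by that rule. The pan-leukocyte phosphatase Ptprc (2.43), the myeloid factor Spi1 (2.38) and the embryonic globins Hbb-y (2.32) and Hbb-bh1 (2.36) were below background. The endotoxin coreceptor Cd14 was nevertheless at 9.42, 9.53, 9.61 and 9.78, and Csf1r, the receptor for colony-stimulating factor, had 6.57 ± 0.079.

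The remaining lineage lists were also under the share of all probe sets. Of 29 epithelial and keratinocyte markers 11 were above background (37.9%), of 20 neural markers 4 (20.0%), of 17 pluripotency and germ cell markers 3 (17.6%) and of 14 trophoblast markers 2 (14.3%). The neural count was 2 without Map2 and Snap25, which were within 0.03. With a level of 5 on every array it was 1, that of epithelial markers 6 and that of trophoblast markers 1. That level left 50.6% of all probe sets. The epithelial adhesion protein Epcam (2.13) and the splicing regulator Esrp1 (2.13) were below background. Klf4 (8.71 ± 0.043) accounted for the highest pluripotency reading, while Pou5f1 (2.41) and Sox2 (2.77) were below. The placental gene Plac1 had 6.50 ± 0.058 and the neural crest factor Pax3 5.35 ± 0.069.

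Some single genes, named after their values were seen, describe the line further. The imprinted RNA H19 was at 10.36, 9.93, 10.34 and 10.48, lowest in replicate 2, and the imprinted factor Peg3 had 9.99 ± 0.052. The Y-linked genes Eif2s3y and Uty were at 7.12, 6.95, 7.29 and 6.79 and at 6.28, 6.28, 6.46 and 6.15, while Xist, the RNA of the inactive X, was at 2.83, 2.85, 2.83 and 2.84, below background. The tumour suppressor Cdkn2a had a mean of 2.40 and the mouse Fes probe set 2.31. Whether that probe set binds the human Fes transcript is not given in the sources used here. Caveolin Cav1, an abundant protein of endothelium, fibroblasts and mesothelium, was at 12.32, 12.14, 12.23 and 12.22.

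The 4 arrays were close to each other. Their median intensities ran from 35.97 to 36.58 on the linear scale, the share of probe sets above background from 62.8% to 63.3% per array, and the mean correlation of an array with the other 3 from 0.9971 to 0.9981 over probe sets above background. The 3′ minus 5′ difference of the beta-actin control probe sets, a measure of RNA integrity and labelling, ran from 0.746 to 0.793, and that of the Gapdh control probe sets from -0.530 to -0.457. Replicate 4 had the largest mean absolute deviation from the mean of the arrays, 0.0733, against 0.0491 to 0.0593 in the others. The range over the arrays had a median of 0.141 and a 99th percentile of 0.787 over probe sets above background. Only 53 of these, 0.494%, spanned 1 or more, that is, a factor of 2 or more in intensity. The highest array was replicate 2 for 25 of the 53 and the lowest was replicate 4 for 29. Without replicate 4 the count fell to 20 and without replicate 2 to 28.

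Some fast-responding genes stood apart in replicate 2. The AP-1 subunit Fos was at 7.70, 9.07, 7.92 and 7.91. The zinc finger factor Egr2 was at 8.64, 9.70, 8.91 and 8.54. The heat shock protein Hspa1b was at 9.83, 11.02, 9.93 and 9.77. In each, replicate 2 lay above the other 3, which lay closer together for Fos and Hspa1b than for Egr2 relative to the gap. Of 24 immediate-early genes, listed after values were seen, 22 were above background. Of the 22, 19 had their highest reading in replicate 2, against 28.8% of all probe sets above background. Egr3 (4.98), 1 of the 19, was within 0.03. The mean of the 22 was 7.86, 8.27, 7.93 and 7.90 on the 4 arrays.

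Single chaperone genes and most histone genes above background were also highest in replicate 2. The cochaperones Hsph1 and Hspa4l were at 9.19, 10.28, 9.20 and 9.22 and at 5.91, 7.36, 6.18 and 6.14. The linker histone H1f2 was at 10.47, 11.52, 10.18 and 10.01. Of 12 histone genes, listed after values were seen, 6 were above background, 1 of them within 0.03. Replicate 2 was highest for 5 of the 6 (83.3%), and the mean of the 6 was 6.11, 6.73, 6.08 and 5.96. Of the 5, H1f6 was the gene within 0.03, and H2bc21 had hardly any lead, at 5.77, 5.78, 5.76 and 5.62. Of 19 heat shock genes above background, in a list made after values were seen, 6 were highest in replicate 2 (31.6%, against 28.8% of all probe sets above background), so the list as a whole was near the background share. The mean of the 19 was 8.86, 9.06, 8.86 and 8.86. The constitutive chaperones Hspa5 (12.45 ± 0.029) and Hsp90b1 (12.36 ± 0.032) had no replicate apart. The cause of the pattern was not tested.

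Some of the widest ranges came from other genes and other arrays. The mitochondrial import subunit Timm17a was at 8.29, 10.37, 10.17 and 10.27, low in replicate 1 alone. The respiratory chain assembly gene Cox7a2l was at 8.85, 7.34, 8.95 and 8.90, low in replicate 2 alone. The translation factor Ctif was at 5.33, 4.66, 4.36 and 3.37, with every array at a different level. The zinc finger genes Zfp141 and Zfp40 were lowest in replicate 4, at 6.44, 6.58, 6.32 and 5.23 and at 5.33, 5.27, 5.51 and 4.18. A set of 294 zinc finger protein genes above background was taken by gene symbol, outside the lists and with the values known. Of these, 38.1% were lowest in replicate 4, against 28.0% of all probe sets above background. This share is a description and not a test, and the symbols also take in Zfp36 of the immediate-early list.

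**Figure D5:**
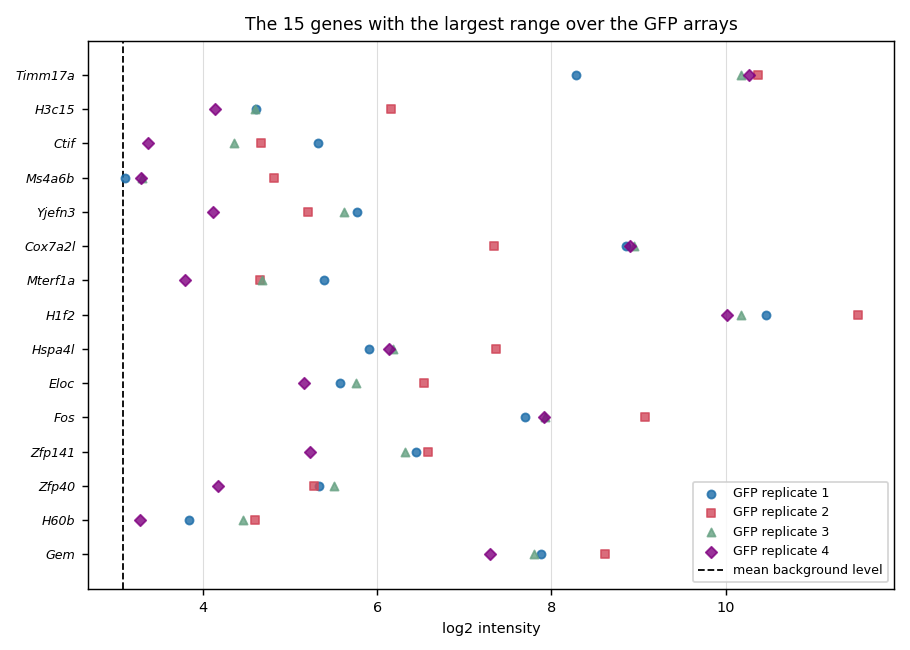
Log2 intensity (horizontal axis) of the 15 named genes above background with the largest range over the arrays (vertical axis), with a symbol for each GFP replicate and the mean background level as a dashed line. Replicate 2 stands clear to the right for Fos, Hspa4l, H1f2, H3c15 and Ms4a6b, and replicate 1 stands to the left for Timm17a.

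Genes of basic machinery set the upper end of what the call can show. Proteasome, RNA polymerase, spliceosome and respiratory complex I genes were listed after values were seen. Of these 109, 106 were above background (97.2%, against 62.0% of all probe sets) and 72 lay in the top 10%. Of the 106, 8 were within 0.03, which leaves 98 of 109, against 54.0% of all probe sets counted the same way. Among the 8 were Polr3b (5.39), Polr3d (6.29) and Ndufa11 (5.76), so near-identical values also occurred in genes of basic machinery. The 3 below background were proteasome subunits of restricted tissues or states, Psma8 of testis, Psmb11 of thymus and the interferon-induced Psmb8, at 2.35, 2.33 and 1.99. Polr2a, the large subunit of RNA polymerase II, was read at 4.08 ± 0.019, in the lower part of the array's range.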

How the data were processed

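Total RNA of 12 samples was labelled with biotin by a 3′ IVT express kit and hybridised to expression arrays, per the labels' protocols. The authors deposited 1 linear intensity for each probe set and array. Per the submitters' processing notes these come from GCRMA, whose version is not given. The genome build is not given in the sources used here. The matrix holds 17370 probe sets, of which 64 are controls. The log2 of each GFP intensity was used as it stands. Of the 17306 other probe sets, 16464 carry 1 gene symbol, 0 several and 842 none, and all 16464 were matched by Entrez number to a RefSeq gene table of GRCm38.p6. GCRMA corrects for the sequence of each probe and pulls dim probe sets to near-constant values, so a small spread between arrays near background is no measure of precision. The authors' 2 deposited comparison tables were not used here.

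The background call is described in the report. No groups were compared, since the profile is of 1 group. The only tests were Dixon's gap rule over the 4 arrays and a one-sided limma test against the background level as an alternative call. The members, lists and families were chosen with earlier results of these data known. The named genes are the 30 brightest, the 12 highest of each class, the 4 highest members above background of each family, members of the lineage lists and the 15 with the largest range, without unnamed gene models. The members of 6 lists added after the values were seen lie outside this rule, as do the other genes the report says were named for another reason. Promoters are the 250 bases before each start in RefSeq's table. The analysis used Python 3.11.15, numpy 2.4.6, pandas 2.3.3 and matplotlib 3.10.9, with limma 3.58.1 in R 4.3.3 for 1 alternative. Calls, ranges and the limma alternative were tested on simulated data. Alternatives were the background level and class, the call, quantile normalization, median centring and leaving out each array.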

Additional observations from a re-analysis of the deposited data

Results flagged for a closer look

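Among the 4 arrays, a value was picked out where the gap between the highest or lowest array and the nearest other one took up more of the whole range than Dixon's 95% critical value for 4 samples allows. That share of the range is called the gap share. Chance alone picks out about 1 in 20 groups chosen without regard to their values. That share cannot be set against the counts here, because 15 of the genes were chosen for their range and the immediate-early and heat shock genes and lists after replicate 2 was seen apart. The rule was applied to 210 of the genes named above that lay above background and to 60 lists. It picked out 37 genes and 5 lists. Of the genes, 5 were within 0.03 over the arrays (Map2, Mcam, Notch3, Snap25 and Tal1), where a gap is no measure of precision. Replicate 2 was the array apart in 20 cases (15 without these 5 genes), replicate 4 in 15, replicate 1 in 6 and replicate 3 in 1.

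Replicate 2 lay above the others with a gap share of 0.853 for Apln, 0.838 for Fos, 1.0 for Hoxa9, 0.876 for Hspa1b, 0.976 for Hsph1, 0.859 for Map2, 0.914 for Mcam, 0.884 for Ms4a6b, 0.871 for Notch3, 0.913 for Polr2a, 1.0 for Snap25, 0.91 for Spink1, 0.886 for Tal1 and 0.921 for Vegfa. Replicate 2 lay below the others with a gap share of 0.941 for Cox7a2l, 0.834 for Hoxb2 and 0.932 for Tnni1. Fos, Hspa1b and Hsph1 are rapid response genes, and Vegfa is the gene the study's shRNAs address. Its replicate 2 value of 7.37 stood against 7.13 to 7.15 on the other arrays. For Polr2a and Spink1 too the whole range is one of hundredths on the log2 scale.

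Replicate 4 lay above the others with a gap share of 0.89 for Csf1r, 0.905 for Cxcl12, 0.831 for Podxl, 0.885 for Rbp4 and 0.838 for Tgfbr3. Replicate 4 lay below the others with a gap share of 0.85 for Efemp1, 0.912 for F2r, 0.839 for Foxc2, 0.961 for Hoxa4, 0.886 for Hoxb3, 0.955 for Pgf, 0.906 for Serpinh1, 0.855 for Smad4 and 0.894 for Yy1. Replicate 1 lay above the others with a gap share of 0.928 for Gata3 and 0.897 for Nrp2. Replicate 1 lay below the others with a gap share of 0.977 for Hoxc13, 0.912 for Krt18 and 0.904 for Timm17a. Replicate 3 lay below the others with a gap share of 0.938 for Egfl7.

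Over lists, the mean of members above background was apart in replicate 2 for immediate-early genes (0.834), heat shock genes (0.983) and TNF superfamily ligands (0.857, 3 members above background), each time higher. It was apart in replicate 1 for endothelial markers (0.874), at 5.25 against 5.19 to 5.20. It was apart in replicate 4 for lipoprotein and scavenger receptors (0.899), at 7.26 against 7.29 to 7.30. The causes were not tested.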

How the results depend on the processing

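The number of probe sets above background moved little under the settings listed next, while lists with many dim members moved by more. It was 10732, and between 10007 and 10911 with the highest chemosensory receptor as the level, with genes of other organs as the silent class, with the mean over arrays, with a one-sided limma test or with quantile normalization. Leaving out 1 array gave 10739 to 10825 probe sets, 16 to 16 endothelial markers, 23 to 23 mesothelial markers, 312 to 315 transcription factors, 209 to 214 receptors and 291 to 293 secreted proteins. Under both stricter background levels 11 of 44 endothelial markers stayed above, and 23 of 28 mesothelial markers did. Both alternatives that follow were chosen after seeing the data. A level of 5 on every array left 7 endothelial and 21 mesothelial markers, and a range of at least 0.03 left 9 and 23. Over all probe sets these settings left 8762 (50.6%) and 9352 (54.0%). Of the 49 other lists and families, 14 moved by more than 1.5 times under the level of 5. Among lineage lists these were cardiac and skeletal muscle (5 of 36), blood and macrophage (5 of 31), epithelial (6 of 29), neural (1 of 20) and trophoblast markers (1 of 14). Among families they were Sox (3 of 19), T-box (2 of 15) and NF-kB and Nfat genes (5 of 9), chemokine receptors (1 of 22), Toll-like receptors (3 of 10), hormone and lipid receptors (38 of 202), chemokine ligands (11 of 33), interleukins with colony-stimulating factors and interferons (6 of 50) and Wnt and hedgehog ligands (8 of 38). Neural markers also moved under the class of other organs (1), the highest chemosensory receptor (2) and the range of 0.03 (2), and T-box genes under the class of other organs (3). Among the 30 brightest genes, 29 to 30 were kept when 1 array was left out. The count of genes that span 1 or more was 53, ran from 20 (without replicate 4) to 50 (without replicate 3) when 1 array was left out, with 28 without replicate 2, and was 71 with no filter on background. Fewer arrays can only shrink a range. No paired analysis was possible because a single group enters every value and no result comes from a test between groups. Signal near background limits calls below about 5, and the number of arrays limits the precision.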
